A study of Rattus norvegicus with 6 samples.

Results

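Tissue macrophages were followed in the bone-bearing tissue around rat teeth, labelled alveolar tissue, through 10 genes that mark them: Cd68, Adgre1, Mrc1, Marco, Mertk, Axl, Siglec1, Msr1, Timd4 and Spic. The genes were chosen by name for their known roles at the surface of macrophages, in scavenging and in the uptake of dying cells, out of 37203 genes in the count table. All 10 had a row in the table, Adgre1 under its older symbol Emr1, and 8 had counts high enough to test. Teeth were moved in a rat model with or without corticision, a surgical cut into the cortical bone that is used to hasten orthodontic movement, and the series asks how the remodelling tissue differs between them. Total RNA was sequenced from 3 libraries titled case (5, 6 and 9) and 3 titled control (5, 6 and 10). The source field gives the case libraries as moved without corticision and the control libraries as moved with it, the opposite of what the titles would usually mean. The titles name the groups below, and a positive difference always means higher in case. The labels give no strain, age or number of animals. They leave unsaid whether each library is a different animal, so the p-values refer to the spread between these libraries, which may be technical.

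Macrophages live in almost every tissue, where they engulf debris, microbes and dying cells. In the jaw they lie in the marrow, around vessels and along bone surfaces, and they share their myeloid precursors and their growth factor, Csf1, with the osteoclasts that resorb bone. Dying cells are taken up through efferocytosis. Receptors such as Timd4 bind phosphatidylserine on the dying cell directly. The receptor kinases Mertk and Axl bind it through bridging proteins such as Gas6. Scavenger receptors such as Msr1 and Marco take up modified lipoproteins and microbes, and the lectins Mrc1 and Siglec1 bind sugars.

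Sequences are shown for 4 members because the factors named here, Spic and its relative Spi1 (PU.1), belong to the Ets family, which binds purine-rich DNA with a GGAA centre. RefSeq (assembly GRCr8) held promoter windows for 8 of the 10 members, and Siglec1 and Msr1 are named only. The windows are the 250 bases before each annotated start, 5′ to 3′ on the gene's strand, with capitals where the letters GAGGAA stand on either strand (TTCCTC marks the opposite strand).
Cd68, chr10:54882442-54882691, minus strand: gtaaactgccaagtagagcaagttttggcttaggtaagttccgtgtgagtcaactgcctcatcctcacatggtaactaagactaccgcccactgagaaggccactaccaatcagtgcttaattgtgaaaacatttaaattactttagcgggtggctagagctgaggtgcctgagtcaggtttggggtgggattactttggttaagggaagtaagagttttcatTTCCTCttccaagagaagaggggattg
Adgre1, chr9:2329190-2329439, plus strand: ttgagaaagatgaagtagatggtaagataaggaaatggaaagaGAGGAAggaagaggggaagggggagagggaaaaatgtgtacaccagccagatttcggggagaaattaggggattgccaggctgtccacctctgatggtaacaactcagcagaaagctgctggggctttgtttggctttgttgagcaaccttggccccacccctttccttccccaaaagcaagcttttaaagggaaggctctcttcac
Mrc1, chr17:82157475-82157724, plus strand: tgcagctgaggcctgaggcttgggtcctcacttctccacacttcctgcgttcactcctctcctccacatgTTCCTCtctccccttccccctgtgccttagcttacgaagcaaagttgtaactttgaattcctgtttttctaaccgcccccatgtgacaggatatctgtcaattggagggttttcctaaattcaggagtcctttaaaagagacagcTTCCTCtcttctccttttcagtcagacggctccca
Marco, chr13:34201256-34201505, minus strand: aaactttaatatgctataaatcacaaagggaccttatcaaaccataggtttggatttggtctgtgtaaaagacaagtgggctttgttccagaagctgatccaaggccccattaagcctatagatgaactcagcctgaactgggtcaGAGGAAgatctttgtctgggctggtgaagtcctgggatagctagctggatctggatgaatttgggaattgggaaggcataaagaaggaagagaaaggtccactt
The 6 letters stood in the windows of 5 of the 8 members, the 4 above and Axl, and in 23.3% of all 33469 windows of that length. They began 27 bases before the start in Cd68, 207 in Adgre1, 180 and 35 in Mrc1 and 104 in Marco. The longer form GAGGAAGT, searched on both strands and containing the shorter one, was in 0 of the 8 and in 2.04% of all windows. Of the members with these letters, Cd68 held 2474 to 5170 counts and Marco was listed at a count of 0 in every library. A listed 0 sets no firm limit on expression in this table, as given below with Hprt1. A match describes these letters only. The search was chosen after the counts had been seen, and 4 other strings were tried with it: AGGAAG was in 5 of the 8 members (29.5% of all windows), GAGGAAG in 4 (10.2%), GGAAGTG in 3 (8.25%) and AGAGGAAGT in 0 (0.651%). These strings overlap one another.

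The Mrc1 gene also holds the microRNA gene Mir511 within its bounds in the same annotation, and its mature forms are given with the seed, bases 2 to 8, in capitals.
rno-miR-511-5p, chr17:82187962-82187982, plus strand: cAUGCCUUuugcucugcacuc
rno-miR-511-3p, chr17:82188001-82188021, plus strand: aAUGUGUAgcaaaagacagga
The row of Mir511 held a count of 0 in all 6 libraries, so the table follows this locus through Mrc1 alone. The seeds of the 2 forms differ.

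Library totals ranged from 10886303 to 14433740 counts, and the 3 counts that a 0 may hide by counting error alone come to 0.208 to 0.276 CPM (counts scaled to library size). Case 5 and control 5 stood apart from the other libraries in other cell types. Summed over the tooth-forming cell list they held 459.6 and 89.8 CPM, against 0.640 to 7.79 CPM elsewhere. Control 5 held 3383 CPM of the oral epithelium list, against 18.6 to 47.4 CPM in the others. The skeletal muscle list was lowest in case 5 and control 5, at 93.0 and 9.54 CPM, against 332 to 1127 CPM elsewhere. The erythroid list was highest in these libraries, at 1610 and 1995 CPM, against 235 to 1127 CPM elsewhere. Osteoclast genes were looked up beside the tissue label, and 12 of 12 in the table could be tested. This shows only that they passed the filter on low counts and does not check the make-up of each library. Ctsk, the collagen-cleaving protease of osteoclasts, was at a mean of 2231 ± 598 CPM in case against 2951 ± 1225 CPM in control (all errors are SD with n = 3 per group). Scaling used the trimmed mean of M-values (TMM). CPM values are not corrected for gene length, so levels are compared between libraries and not between genes.

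None of the members passed the test between the groups. The edgeR quasi-likelihood test with Benjamini-Hochberg adjustment called 0 of the 8 tested members and 0.0% of all 16066 tested genes, and each member had an adjusted p of 0.999. At an unadjusted p under 0.05 it gave 0 members and 4.15% of all tested genes, with Siglec1 just above at 0.0517. The same test gave Siglec1 alone with DESeq2 size factors, upper-quartile scaling, library totals, no filter or a robust fit. The shares over all tested genes were then 3.95% to 4.28%. DESeq2 and limma-voom called 0 members after adjustment and gave Siglec1 alone before it, beside 4.6% and 3.65% of all tested genes. Of the 8, 7 had a positive fold change, that is higher in case (source field without corticision), beside 46.3% of all tested genes. The count was 8 when scaled by library totals and 5 without case 6, and Timd4, fitted only with no filter, was negative. Their median log2 fold change was 0.22, beside -0.024 over all tested genes, and it was 0.14 without case 6, 0.33 without control 6, 0.36 without case 9 and 0.39 without case 5. In 0 of the 8 did the case libraries lie all above or all below the control libraries, beside 8.47% of all tested genes. That count was 3 without case 5 (Cd68, Siglec1 and Msr1, beside 28.9% of genes) and the same genes without both libraries numbered 5 (46.8%). It was 3 without case 9 (Adgre1, Mertk and Axl, 15.4%) and 1 without control 5 (Siglec1, 24.4%) or control 6 (Adgre1, 17.2%), each time higher in case. In bulk tissue, fewer cells of a type and less RNA per cell cannot be told apart.

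**Figure D1:**
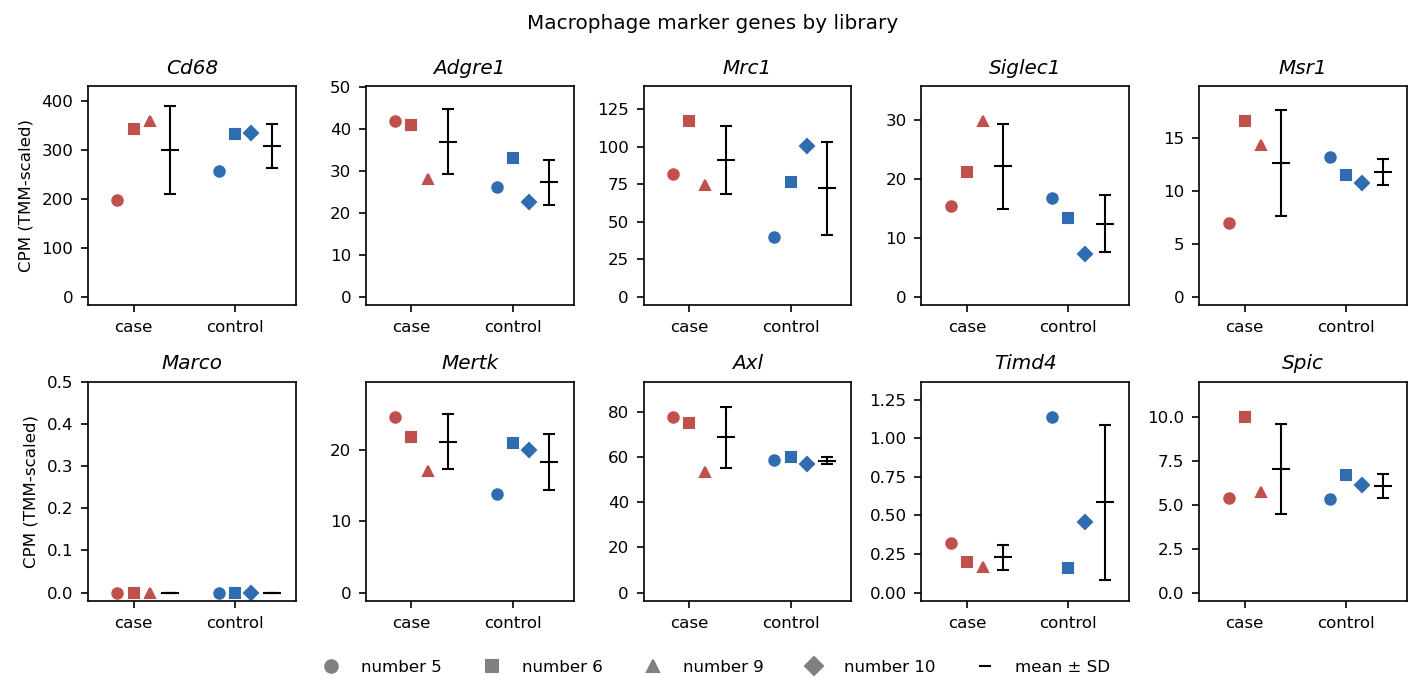
TMM-scaled CPM (y axis, linear) of each of the 10 members in every library, case in red and control in blue; marker shapes give the number in the title and black bars the mean ± SD of 3 libraries. Every panel with counts shows overlapping groups, Marco is at 0 throughout, and Siglec1 runs from 7.22 CPM in control 10 to 29.8 CPM in case 9.

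Cd68 and Adgre1 are the general markers. Cd68 encodes a glycoprotein of endosomes and lysosomes that is abundant in macrophages and also present in osteoclasts. It was at 198, 344 and 359 CPM in case 5, 6 and 9 and at 257, 334 and 335 CPM in control 5, 6 and 10. Both libraries numbered 5 were the low ones of their group, and the other 4 lay within a narrow band. The means were 300.3 ± 89.2 CPM in case against 309 ± 44.6 CPM in control, a log2 fold change of -0.04 (SE 0.26), the only negative one among the members. Without case 5 the same value was 0.21, and scaled by library totals alone it was 0.02.

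Adgre1 encodes F4/80, an adhesion receptor of the G protein-coupled kind that is widely used as a surface marker of mouse macrophages. It was at 42.0, 41.0 and 28.1 CPM in case 5, 6 and 9 and at 26.2, 33.1 and 22.7 CPM in control 5, 6 and 10. Case 5 and case 6 lay above every control library, and case 9 lay below control 6. The log2 fold change was 0.44 (SE 0.22) with an unadjusted p of 0.0836 in edgeR, and it stayed between 0.36 and 0.63 whichever library was left out. Adgre1 and Cd68 thus did not follow each other: case 5 was the highest library for Adgre1 and the lowest for Cd68. In RefSeq, 2 pseudogenes overlap Adgre1, 1 pseudogene overlaps Msr1, and a long non-coding RNA gene overlaps Mrc1. No source used here gives the counting rules, so reads could have been shared with them.

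Siglec1 and Mrc1 are receptors that bind sugars. Siglec1 had the largest fold change of the 8 tested members over all 6 libraries with the group alone in the fit, though not in every alternative. It encodes sialoadhesin (CD169), a sialic acid-binding lectin of resident macrophages that is also induced by interferon. It was at 15.5, 21.2 and 29.8 CPM in case 5, 6 and 9 and at 16.7, 13.4 and 7.22 CPM in control 5, 6 and 10. The groups met only at their number 5 libraries, where control 5 lay just above case 5. The means were 22.2 ± 7.22 CPM in case against 12.4 ± 4.82 CPM in control, a log2 fold change of 0.83 (SE 0.36) or 1.78-fold, with an unadjusted p of 0.0517 and an adjusted p of 0.999 in edgeR. Without case 5 the log2 fold change was 1.06, without control 5 it was 1.11, and without both libraries numbered 5 it was 1.34 with an adjusted p of 0.225, the smallest that any member reached under any alternative. Without case 9 it was 0.56, below the 0.60 of Adgre1, and without control 10 it was 0.59, below the 0.68 of Mrc1. The highest library held 4.13 times the CPM of the lowest, the widest span among the tested members.

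Mrc1 encodes the mannose receptor CD206, an endocytic lectin of resident macrophages that is also found on the endothelium of sinusoids and lymphatics. It was at 82.0, 117 and 74.3 CPM in case 5, 6 and 9 and at 39.5, 76.4 and 100.6 CPM in control 5, 6 and 10. Control 5 stood alone at the low end, and the other 5 libraries mixed the groups. The log2 fold change of 0.34 (SE 0.34) depended on single libraries, being 0.04 without control 5, 0.11 without case 6 and 0.68 without control 10.

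Msr1 and Marco are class A scavenger receptors. Msr1, which takes up modified lipoproteins, was at 7.03, 16.6 and 14.4 CPM in case 5, 6 and 9 and at 13.2, 11.5 and 10.8 CPM in control 5, 6 and 10. The control libraries had an SD of 1.25 CPM, while the case libraries held both the lowest and the 2 highest values. The log2 fold change was 0.10 (SE 0.33), and it ran from -0.15 without case 6 to 0.42 without case 5. Marco, a receptor for bacteria that is best known from macrophages of the lung and of the splenic marginal zone, was listed at 0 in all 6 libraries. Hprt1, a gene that every cell uses, was also at a count of 0 in case 5, control 5 and control 6, so a listed 0 sets no firm limit on expression in this table. No fold change is given for Marco.

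The members that act in efferocytosis are Mertk, Axl and Timd4. Mertk, the receptor kinase by which resident macrophages engulf dying cells, was at 24.7, 21.8 and 17.1 CPM in case 5, 6 and 9 and at 13.8, 21.1 and 20.1 CPM in control 5, 6 and 10. Control 5 was the lowest library and case 5 the highest, and the remaining 4 overlapped. The log2 fold change was 0.21 (SE 0.23), and it was 0.04 without control 5 and -0.04 without both libraries numbered 5. Axl, the related kinase that is also made by fibroblasts and endothelium, was at 77.7, 74.8 and 53.4 CPM in case 5, 6 and 9 and at 58.5, 59.9 and 56.9 CPM in control 5, 6 and 10. Case 5 and case 6 lay above all control libraries and case 9 below them all. The control libraries had an SD of 1.48 CPM around a mean of 58.4 CPM, against 13.3 CPM around 68.7 CPM in case, and the log2 fold change was 0.23 (SE 0.17). Timd4, the phosphatidylserine receptor of long-lived resident macrophages, fell below the filter on low counts. It had 4 in case 5, 3 in case 6 and 2 in case 9, and 13 in control 5, 2 in control 6 and 5 in control 10. The highest value was that of control 5, and the other 5 libraries held a handful of counts each. Fitted with no filter, its log2 fold change was -1.30 (SE 0.87), negative unlike those of Mertk and Axl, with an edgeR adjusted p of 0.909.

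Spic is the one transcription factor among the members. It specifies the iron-recycling macrophages of the splenic red pulp and occurs in those of the marrow. It was at 5.35, 9.98 and 5.72 CPM in case 5, 6 and 9 and at 5.34, 6.69 and 6.12 CPM in control 5, 6 and 10. Case 6 stood above the other 5 libraries, which lay close together, and the log2 fold change of 0.22 (SE 0.31) was -0.13 without case 6. Its relative Spi1, named here after its values were seen, was at 170.1 ± 53.9 CPM in case against 116 ± 20.2 CPM in control, a log2 fold change of 0.55 (SE 0.27) with overlapping groups and an edgeR adjusted p of 0.999.

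**Figure D2:**
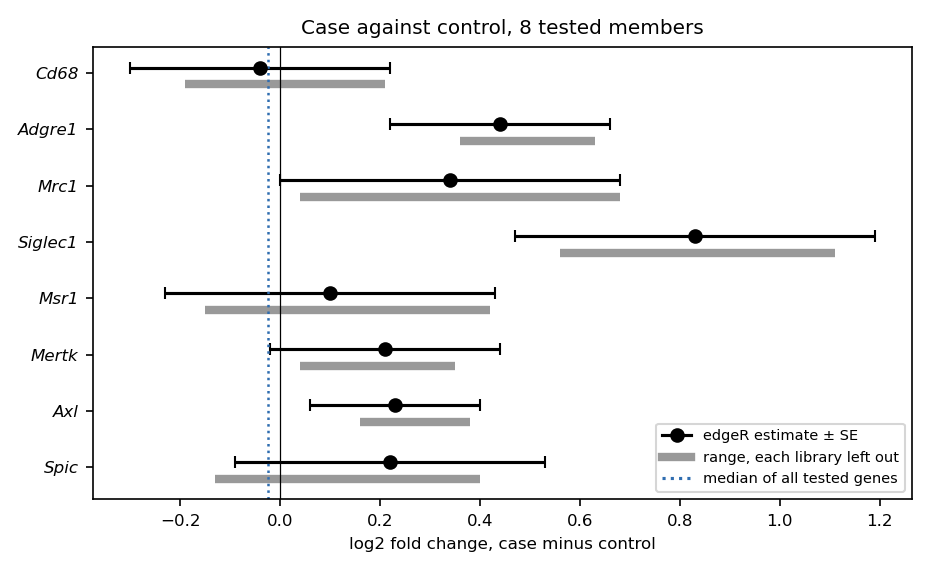
Log2 fold change, case minus control, of the 8 tested members (points, edgeR estimate ± SE), with the range over fits that each leave out 1 library (grey bars) and the median of all tested genes (dotted line, -0.024). The grey bars of Cd68, Msr1 and Spic cross 0, and that of Siglec1 runs from 0.56 to 1.11.

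The members did not share one pattern over the libraries. Of the 8 tested, 3 were highest in case 5 (Adgre1, Mertk and Axl), 3 in case 6 (Mrc1, Msr1 and Spic) and 2 in case 9 (Cd68 and Siglec1). A control library was highest for 0 of the 8, and the matching share over all tested genes was not counted. Timd4, too low to test, was highest in control 5. The lowest library was control 5 for Mrc1, Mertk and Spic, case 5 for Cd68 and Msr1, control 10 for Adgre1 and Siglec1, and case 9 for Axl. Case 5 was therefore at the top for both receptor kinases and at the bottom for Cd68 and Msr1. Centred on its own mean over the 6 libraries, Cd68 was at -0.59 and Msr1 at -0.74 log2 CPM in case 5, where Adgre1 was at 0.42, Mertk at 0.34 and Axl at 0.30. The span from the lowest to the highest library was narrowest for Axl, at 1.46 times.

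**Figure D3:**
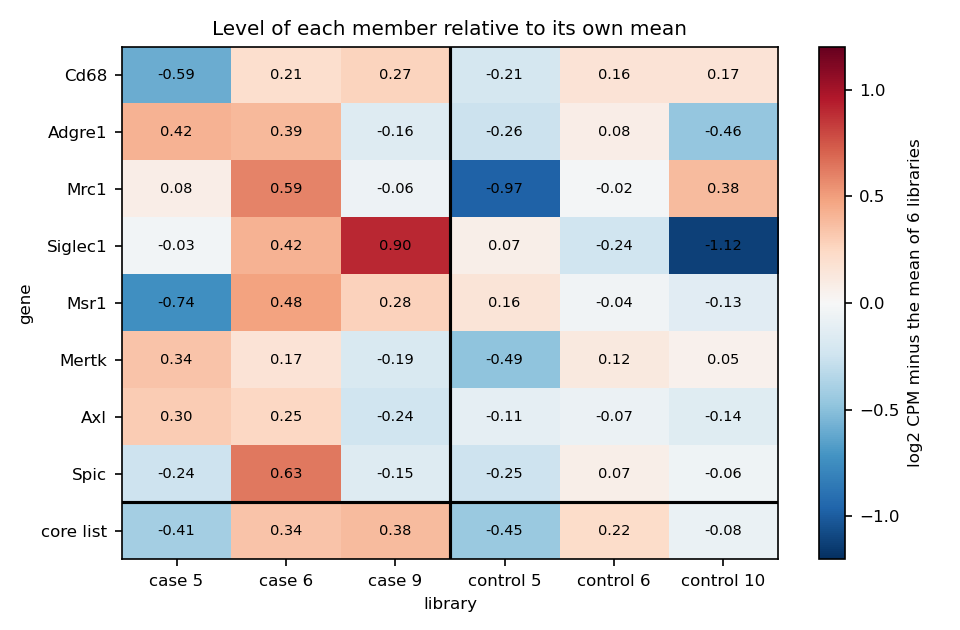
Log2 CPM of each tested member in each library minus that gene's mean over the 6 libraries (colour and printed value), with the mean over the 25 tested genes of the macrophage core list in the bottom row. Case 5 holds both negative (Cd68, Msr1) and positive (Adgre1, Mertk, Axl) members, and the core list is lowest in the 2 libraries numbered 5.

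A wider list of 26 macrophage genes was set beside the members. Some of them, such as Lyz2, Itgam and Spi1, are also made by neutrophils and their precursors. Of its 25 tested genes, 19 had a positive and 6 a negative fold change (median 0.25), and 0 passed. Csf1r, the receptor for Csf1, was at 497 ± 52.5 CPM in case against 442 ± 35.2 CPM in control. Aif1, an actin-binding protein of macrophages, was at 67.1 ± 25.1 and 53.9 ± 13.04 CPM, and C1qa, a chain of complement C1q, at 197 ± 72.6 and 168 ± 56.8 CPM. Cd163, the receptor for haemoglobin bound to haptoglobin, was at 65.8 ± 31.9 and 38.5 ± 5.75 CPM. Over the list, log2 CPM averaged 6.19 in case 5, 6.94 in case 6 and 6.98 in case 9, and 6.15 in control 5, 6.82 in control 6 and 6.52 in control 10, lowest in both libraries numbered 5. The neutrophil list was lowest in the same libraries, at 8.73 in case 5 and 8.40 in control 5 against 9.04 to 9.56 elsewhere, and its part in these values was not tested.

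Set against this list within each library, every difference between the groups shifts down by the same 0.20, the list's own difference. Cd68 minus the list mean was 1.44 log2 units in case 5, 1.49 in case 6 and 1.51 in case 9, and 1.86 in control 5, 1.56 in control 6 and 1.87 in control 10. The groups did not overlap on this scale, with a mean difference of -0.28, for Cd68 alone among the 8 tested members. The same held, lower in case, for 4.44% of all tested genes. This share counts only the direction of Cd68, and genes apart in the other direction were not counted. Siglec1 kept a mean difference of 0.65, Adgre1 of 0.23 and Mrc1 of 0.20, all with overlapping libraries. Mertk and Axl had differences of 0.0099 and 0.0083, against 0.21 for each in log2 CPM. These values are a description with no test.

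The partners of the efferocytosis receptors were taken from a list of 24 genes of which 23 were tested. It had 12 positive and 11 negative fold changes, a median of 0.04 and 0 calls. The bridging protein Gas6 was at 668 ± 58.6 CPM in case against 540.3 ± 207 CPM in control, where control 5 alone held 313 CPM. The bridging protein Pros1 was at 43.5 ± 3.11 and 51.9 ± 14.95 CPM, and Mfge8, which bridges phosphatidylserine to integrins, at 270 ± 9.62 and 288 ± 44.9 CPM. Tyro3, the remaining kinase of the family of Mertk and Axl, was at 11.8 ± 2.32 CPM in case against 17.7 ± 0.973 CPM in control, with groups that did not overlap, a log2 fold change of -0.58 (SE 0.20) and an edgeR adjusted p of 0.999. Its sign was opposite to that of Mertk and Axl, of which Mertk was also negative without both libraries numbered 5. Groups did not overlap in 2 of the 23 genes, beside 8.47% of all tested genes: Tyro3 lower in case and Pparg, a lipid-sensing nuclear receptor, higher.

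Other scavenger receptors were as mixed. Of 17 tested, 10 had a positive and 7 a negative fold change (median 0.08, 0 calls). Cd36, which takes up fatty acids and oxidised lipoproteins, was at 22.5 ± 7.21 and 19.2 ± 2.19 CPM in case and control, and Stab1, an endocytic receptor of macrophages and sinusoids, at 128.5 ± 28.2 and 89.5 ± 17.8 CPM. Colec12, a scavenger receptor of endothelium and stroma, was at 128 ± 13.3 and 171.5 ± 28.6 CPM with groups that did not overlap. Cxcl16, a membrane-bound chemokine that also scavenges lipoproteins, was at 33.6 ± 5.84 and 48.2 ± 13.6 CPM. The groups also did not overlap in Scarf1, named for that count, at 28.1 CPM in case against 22.8 CPM in control. Thus 2 of the 17 were apart, in opposite directions, beside 8.47% of all tested genes.

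Spic is known to act in macrophages that recycle the iron of red cells, and 14 genes of heme and iron handling were tested beside it. Of these, 10 were positive and 4 negative in fold change (median 0.12, 0 calls). Hmox1, the heme-degrading enzyme, was at 104 ± 60.4 CPM in case against 95.3 ± 38.4 CPM in control. The iron exporter Slc40a1 was at 55.5 ± 27.1 and 48.7 ± 13.7 CPM, and the biliverdin reductase Blvrb at 96.5 ± 10.3 and 90.0 ± 36.4 CPM. Vcam1, an adhesion molecule of marrow macrophages, stroma and endothelium, was at 156 ± 31.2 and 82.2 ± 16.4 CPM with groups that did not overlap. Its log2 fold change was 0.92 (SE 0.21) with an edgeR adjusted p of 0.999. Of the 14 genes, groups did not overlap in 1 higher in case, Vcam1, and 1 lower, Tfrc, beside 8.47% of all tested genes. Tfrc was at 127 CPM in case against 199 CPM in control.

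The factor that maintains macrophages and its receptor had fold changes of opposite sign. Csf1 was at 79.9 ± 12.8 CPM in case against 128 ± 18.5 CPM in control, with groups that did not overlap, a log2 fold change of -0.68 (SE 0.18) and an edgeR adjusted p of 0.999. Its receptor Csf1r had a log2 fold change of 0.17 (SE 0.17). Il34, the other ligand of that receptor, was at 14.4 ± 3.27 and 17.6 ± 3.01 CPM, and Csf2 was too low to test. Csf2ra, a receptor chain for Csf2, is named because its groups also did not overlap, at 125 CPM in case against 72.4 CPM in control. Its log2 fold change was 0.79 (SE 0.24) with an edgeR adjusted p of 0.999. Csf1, lower in case, and Csf2ra, higher, were the only tested genes of this list with groups apart, beside 8.47% of all tested genes. Of the 7 tested genes of this list 4 had a positive fold change (median 0.12).

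Markers of other cells that share or border on the members' expression are given beside them. Of 14 tested monocyte and dendritic cell genes 11 were positive (median 0.39). They include F13a1, a transglutaminase of monocytes (89.7 ± 8.83 and 69.6 ± 7.07 CPM), the integrin chain Itgax (65.4 ± 9.64 and 60.0 ± 5.46 CPM) and Flt3, the receptor kinase of dendritic cell precursors (15.8 ± 2.23 and 11.8 ± 1.47 CPM). Summed, the list held 1267 to 2726 CPM in case and 1135 to 1380 CPM in control. Of 12 osteoclast genes, which matter for Cd68, 9 were negative, with a median of -0.10 and sums of 4908 to 6437 CPM in case and 4891 to 8347 CPM in control. All 10 fibroblast genes, which matter for Axl, were negative, with a median of -0.46 and sums of 8531 to 13660 and 11900 to 17850 CPM. Of 12 endothelial genes, which matter for Mrc1 and Axl, 9 were negative, with a median of -0.17 and sums of 623 to 840 and 798 to 878 CPM. Neutrophil genes had a median of 0.11 and sums of 9273 to 20030 and 7138 to 20520 CPM, and all 10 erythroid genes were negative, with a median of -0.56 and sums of 235 to 1610 and 626 to 1995 CPM. Groups did not overlap in 2 of the 14 monocyte and dendritic cell genes, F13a1 and Flt3, both higher in case. They also did not overlap, lower in case, in 1 of 12 osteoclast, 2 of 12 endothelial and 3 of 10 fibroblast genes. The neutrophil and erythroid lists had 0 such genes, and the share over all tested genes was 8.47%. No gene of these 6 lists passed, and their part in the members' values was not tested.

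**Figure D4:**
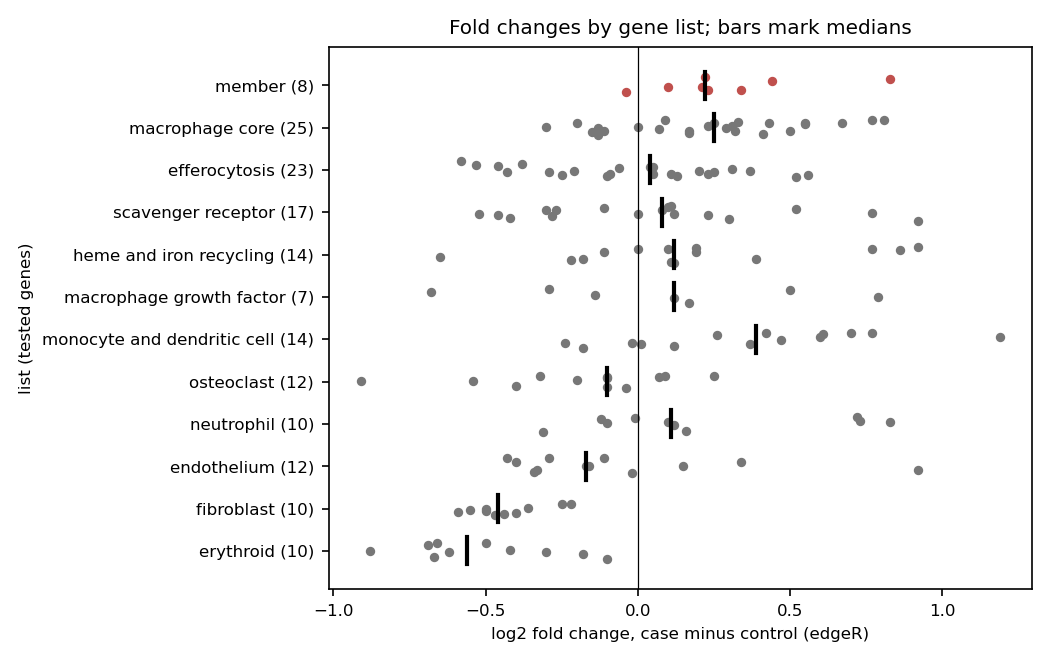
Log2 fold changes, case minus control (x axis), of the tested genes of each list (points, number tested in brackets, members in red), with black bars at the list medians. The members and the macrophage core list have medians of 0.22 and 0.25, and the fibroblast and erythroid lists of -0.46 and -0.56.

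The genes whose libraries ran most like each member were found among 10762 other genes averaging 5 CPM or more, by the root mean square difference of centred log2 CPM over the 6 libraries. Nearest to Mrc1 were Tusc5, a membrane protein of fat cells, at 0.130, and Gas6 at 0.142, where Mrc1 itself varied by 0.491. Nearest to Siglec1 were Tmsb10, an actin-binding thymosin, at 0.166, and Cd38, an NAD-consuming surface enzyme, at 0.205, where Siglec1 varied by 0.620. Nearest to Cd68 were the proteasome subunit gene Psma6 (0.050) and Psme1-ps1 (0.0612), and nearest to Adgre1 were Il18rap, a chain of the interleukin receptor family (0.0911), and Ankrd33b (0.104). Msr1 ran closest to the immediate early gene Ier2 (0.0992) and to Pick1 (0.123). Spic ran closest to Pctp, a phosphatidylcholine transfer protein (0.0877), and to Id2, an inhibitor of helix-loop-helix factors (0.0909). Mertk ran closest to Rnf34 (0.0571) and Dnajc18 (0.0730), and Axl to Celf5 (0.0312) and Gin1 (0.0489). None of these genes was among the nearest 2 of another member. These are descriptions over 6 libraries and carry no test.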

How the data were processed

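TRIzol-extracted total RNA was sequenced from one end with an Ion Total RNA-Seq kit, per the labels' protocols. The deposited file holds raw counts, whole numbers for each gene symbol and library, which the authors did not normalize as far as the values tell. Aligner, counter, build, annotation and strand setting: not given in the sources used here. Columns were matched to libraries by title, and 0 were unused.

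Genes were filtered with filterByExpr, scaled by TMM and fitted in edgeR 4.0.16 (R 4.3.3; glmQLFit, glmQLFTest) over all 16066 genes kept, with the group as the only term, Benjamini-Hochberg adjustment and a threshold of 0.05. Log2 CPM used a prior count of 2. The script was tested on simulated data. Alternatives used DESeq2 1.42.0, limma 3.58.1, other scalings and filters, the title number as a block and libraries left out.

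The members and the 14 other gene lists were chosen with earlier results of these data known. Of 188 list genes 182 matched by symbol, 3 by a RefSeq synonym and 3 not at all (Trf, Ccr2 and Ocstamp). Named were all members and the first 4 genes of each list. Also named were the 2 genes nearest in pattern to each tested member with a mean of at least 5 CPM. The text gives a part of the list genes, and names Pparg, Scarf1, Csf2ra, Tfrc and Spi1 outside the rule, after their values were seen. Skeletal muscle genes (8 tested, median -0.59) were used only to compare list sums between libraries. Promoter and microRNA sequences are from RefSeq, assembly GRCr8.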

Additional observations from a re-analysis of the deposited data

How the results depend on the processing

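Of 128 values, 8 members under 16 alternatives, 119 kept the direction of the log2 fold change and its side of the threshold and 9 turned it, none of them past the threshold. Cd68 turned to 0.02 with library totals and 0.11 without both libraries numbered 5, and ran from -0.19 to 0.21 with each library left out. Mertk turned to -0.04 without both libraries numbered 5, Msr1 to -0.17 with the title number as a replicate block, and single libraries left out gave -0.15 to 0.42 for Msr1 and -0.13 to 0.40 for Spic. The numbers 5 and 6 stand in both groups, but the labels do not say that they pair libraries; across genes, deviations from the group means correlated at 0.38 for number 5 and 0.136 for number 6, and at 0.283 for case 9 with control 6 and 0.145 for case 6 with control 10, which share no number. With the replicate block the members had a median of 0.33 and 0 calls, Siglec1 was at 0.28 (unadjusted p 0.362 in edgeR) and Mrc1 at 0.83 (unadjusted p 0.00511, adjusted 0.922). DESeq2 called 21 genes and edgeR 0 to 2 with single libraries left out, in each case with 0 members. Members with groups apart were 0 to 3 with single libraries left out and 3 without both libraries numbered 5. Members with a positive fold change numbered 5 (without case 6) to 8 (without case 5, control 6 or control 10, or with library totals) of 8. At an unadjusted p under 0.05 (edgeR, DESeq2 or limma-voom) the alternatives gave 0 to 2 members. There were 2 without case 9 (2.84% of all tested genes), with the replicate block (4.06%) and without both libraries numbered 5 (14.1%). The causes were not tested. At 2 to 13 counts, depth limits Timd4.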
